A study of Mus musculus with 34 samples.

Results

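Lymphotoxin beta (Ltb) and the chemokine Ccl19 were 2 of the 84 inflammatory genes measured by PCR array in whole lung RNA of 34 mice. They are described as a pair because they belong to the same signaling axis of lymphoid tissue, and every mouse was used. Both had a Ct (the PCR cycle at which the signal crossed the threshold) in all 34 mice. The animals were female wild-type C57BL/6 mice (C57BL/6J in the study's methods), 8 weeks old, that breathed ozone (O3, 2 ppm) or filtered air (FA) for 3 h in a known stage of the estrous cycle and were killed 4 h later. The FA groups held 6 mice in proestrus, 6 in estrus, 4 in metestrus and 4 in diestrus, and the O3 groups held 5, 3, 3 and 3 mice. Proestrus and estrus form the follicular phase (12 FA and 8 O3 mice) and metestrus and diestrus form the luteal phase (8 FA and 6 O3 mice). Cycle stage was read from vaginal smears, so that ovarian hormones were not set by treatment. The whole lung was homogenized, so fewer cells of a type and less RNA per cell cannot be told apart in any of these values.

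Lymphotoxin beta is a membrane protein of lymphocytes that pairs with lymphotoxin alpha and binds the lymphotoxin beta receptor on stromal cells. That receptor signals through NF-κB and is known for driving the formation of lymph nodes and of lymphoid aggregates in inflamed lung. Ccl19 is a chemokine made by lymphoid stromal cells and dendritic cells, attracts T cells and mature dendritic cells through the receptor Ccr7, and is a known target of lymphotoxin beta receptor signaling. None of the genes that could be named on the array defines lymphocytes or stromal cells, so the cells behind the signal were not identified.

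Ltb lies on mouse chromosome 17 from 35194507 to 35196305 and Ccl19 on chromosome 4 from 42754525 to 42756365 (RefSeq, build GRCm38.p6), and both are protein-coding. The 250 bases before each start site are shown because both genes belong to a pathway that uses NF-κB, with any match to the κB consensus in capitals. The Ltb stretch is on the plus strand and the Ccl19 stretch on the minus strand.
Ltb, chr17:35194257-35194506: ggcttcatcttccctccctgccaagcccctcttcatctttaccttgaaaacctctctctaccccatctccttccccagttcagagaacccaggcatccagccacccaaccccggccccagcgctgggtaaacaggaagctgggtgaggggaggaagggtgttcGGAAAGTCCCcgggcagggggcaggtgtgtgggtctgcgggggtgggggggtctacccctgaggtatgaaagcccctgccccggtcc
Ccl19, chr4:42756366-42756615: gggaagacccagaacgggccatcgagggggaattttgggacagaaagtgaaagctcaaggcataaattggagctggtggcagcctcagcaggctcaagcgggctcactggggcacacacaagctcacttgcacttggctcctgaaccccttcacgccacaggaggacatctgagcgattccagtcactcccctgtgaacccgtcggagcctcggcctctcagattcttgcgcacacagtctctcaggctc
Both strands were searched for 3 motifs. The Ltb stretch held 1 match to the κB consensus, GGAAAGTCCC, which reads on the minus strand and lies 87 to 78 bases before the start. Of 32851 mouse promoter windows of this length, 7.25% held such a match. The Ltb stretch also held ACAGGAAG, 120 to 113 bases before the start, as did 2.9% of windows. TATAAA, present in 12.4% of windows, was found in neither gene, and none of the 3 motifs was found in the Ccl19 stretch. These are matches of letters in one window and say nothing about binding. The annotation also lists 3 pseudogenes named after Ccl19 and 1 other protein-coding gene with Ccl19 as a synonym. The primer sequences are not given in the sources used here, so whether those copies add to the Ccl19 signal is uncertain.

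The deposited values carry plate positions without gene names. Ltb was placed in well F4 and was among 17 genes for which exactly 1 well matched the printed differences of the study within 0.001. Ccl19 was placed in well A9 by the colors of a heatmap, as were Ccr2 and Cxcl3, and the names of these 3 wells are less secure. The 20 named wells run in alphabetical order along the plate, with A9 between Ccl17 and Ccl2. Expression is given as -ΔCt, the mean Ct of 4 reference wells minus the Ct of the gene, on a log2 scale on which 1 unit is a doubling and a value closer to 0 is a higher level.

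The labels and the way the Ct values are written set 4 mice apart. They carry numbers 31 to 34 in the labels, and their Ct values are written with more decimals than those of the other 30 mice. They are FA proestrus replicate 1, FA diestrus replicates 1 and 2 and O3 estrus replicate 1. In FA diestrus replicate 2 and O3 estrus replicate 1, reference wells H1 and H2 lay 3.62 and 5.86 cycles apart, against a median of 1.62 over all mice. The main results are therefore given with all mice and without these 4. The remaining mice were written with 3 decimals (22 mice) or 6 decimals (8 mice), and the 6 O3 luteal mice all had 3. What the formats stand for is not given in the sources used here.

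Ltb was lower after O3 in follicular females. Its -ΔCt was between -6.52 and -4.80 in the 8 O3 mice, with a median of -5.94. In the 12 FA mice it was between -5.38 and -3.29, with a median of -4.99. Only 1 O3 mouse, estrus replicate 1, lay inside the FA range. The O3 mice averaged -5.92 ± 0.53 (SD, n = 8) and the FA mice -4.77 ± 0.62 (SD, n = 12). The difference was -1.14 (SE 0.29) on the log2 scale, or 2.21-fold lower, with a 95% interval from 1.48-fold to 3.30-fold (limma, adjusted p = 0.00239). At this threshold 3.57% of the 84 wells were lower after O3 in follicular females, namely Ltb, Ccr2 (the receptor that recruits monocytes) and Nos2 (inducible nitric oxide synthase).

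Without the 4 mice, the 7 O3 follicular mice ranged from -6.52 to -5.67 and the 11 FA mice from -5.38 to -3.29. The 2 groups then did not overlap, as was so for 2.38% of the wells in this direction. The difference was -1.34 in these mice (adjusted p = 5.78e-05, limma), and 8.33% of wells were lower.

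Ltb in luteal females differed less, and the difference did not pass the test. The 6 O3 mice lay between -5.94 and -4.89 with a median of -5.34, and the 8 FA mice between -6.63 and -4.11 with a median of -4.91. Every O3 mouse was inside the FA range, whose lowest and highest values both came from the 4 mice set apart. The difference was -0.29 (95% interval -0.98 to 0.39, adjusted p = 0.555, limma), which does not exclude a fall of 1.97-fold. With all mice, 9.52% of wells were lower and 11.9% higher after O3 in luteal females. Without the 4 mice the luteal difference was -0.40 (adjusted p = 0.300, limma), and 11.9% of wells were lower. The interaction of exposure and phase for Ltb was -0.85 (95% interval -1.75 to 0.05, adjusted p = 0.254), so the fall was not shown to differ between phases. Other settings moved the Ltb interaction both ways, and none called it. It was -1.17 with the mean Ct of the array wells as reference (adjusted p = 0.169, limma) and -0.94 without the 4 mice (adjusted p = 0.302, limma). With the Ct format as a term it was -0.53 (adjusted p = 0.591, limma). Of the 8 O3 follicular mice, 4 had 6 decimals, while no O3 luteal mouse did. No well of the array (0%) passed the interaction test by limma, and 19 had an unadjusted p under 0.05. Averaged over both phases, Ltb fell by 0.72 on the log2 scale (adjusted p = 0.0126, limma), and 10.7% of wells were lower in that contrast. Without the 4 mice the averaged difference was -0.87 (adjusted p = 0.000437, limma). The averaged call was lost with reference well H2 alone (-0.54, adjusted p = 0.488).

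By stage, the Ltb estimate with all mice and the 4 reference wells was largest in proestrus and smallest in diestrus. Without the 4 mice proestrus and estrus were both at -1.29. With all mice, estrus had the larger fall with H1 alone, H5 alone, 3 reference wells without H2 and the mean Ct of the array wells (-1.55 against -1.44 in proestrus). Proestrus had the larger fall with H2 alone, H3 alone and 5 reference wells (-1.13 against -0.85 in estrus). In proestrus the 5 O3 values were -6.38, -6.52, -5.92, -5.67 and -6.14, and the 6 FA values ran from -5.33 to -3.29 with a median of -5.16. No O3 mouse reached the lowest FA mouse, as was so for 2.38% of the wells, and the difference was -1.23 (adjusted p = 0.0262, limma), with 2.38% of wells lower. That call was lost (adjusted p up to 0.102) without FA proestrus replicate 2, where the difference was -0.91, or without O3 proestrus replicate 1, 2 or 5. It was also lost with reference well H2 alone (adjusted p = 0.361), H5 alone (0.143), the authors' linear fold changes (0.127), only the mice with 3 decimals (0.0794) or with 6 (0.0684), and in a separate fit (0.0680, limma).

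In estrus the 3 O3 values were -4.80, -5.95 and -5.93, and the FA values ran from -5.38 to -4.22 with a median of -4.49. The 2 lower O3 mice were below every FA mouse and the remaining one was O3 estrus replicate 1. The difference was -0.91 (adjusted p = 0.211) with all mice, where 0% of wells were lower by limma and 20 had an unadjusted p under 0.05 in either direction. That value depended on the reference. With all mice it was -1.55 with the mean Ct of the array wells as reference (adjusted p = 0.0146, limma). It was -1.24 with 3 reference wells without H2, chosen after seeing the data (adjusted p = 0.0257, limma), and 0.0703 with H2 alone. Without the 4 mice set apart the estrus difference was -1.29 (adjusted p = 0.0446, limma), where 2.38% of wells were lower. Without O3 estrus replicate 1 alone, the only estrus mouse among the 4, it was also -1.29 but was not called (adjusted p = 0.107, limma). Both fits leave 2 O3 mice in estrus.

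In metestrus the O3 values were -5.48, -5.38 and -5.94 and the FA values -5.51, -4.86, -4.65 and -5.37. In diestrus the O3 values were -5.14, -4.89 and -5.29 and the FA values -6.63, -4.11, -4.97 and -4.37. The exposures overlapped in both stages, with differences of -0.50 (adjusted p = 0.688) and -0.09 (adjusted p = 0.961, limma). In metestrus 0% of wells were lower by limma and 18 had an unadjusted p under 0.05 in either direction, and in diestrus 5.95% were lower. The diestrus estimate had no stable sign, since it was 0.22 without FA diestrus replicate 2 and -0.62 at the other end of the fits that left out 1 mouse. Without the 4 mice set apart, which leaves 2 FA mice in diestrus, it was -0.44 (adjusted p = 0.583, limma).

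**Figure D1:**
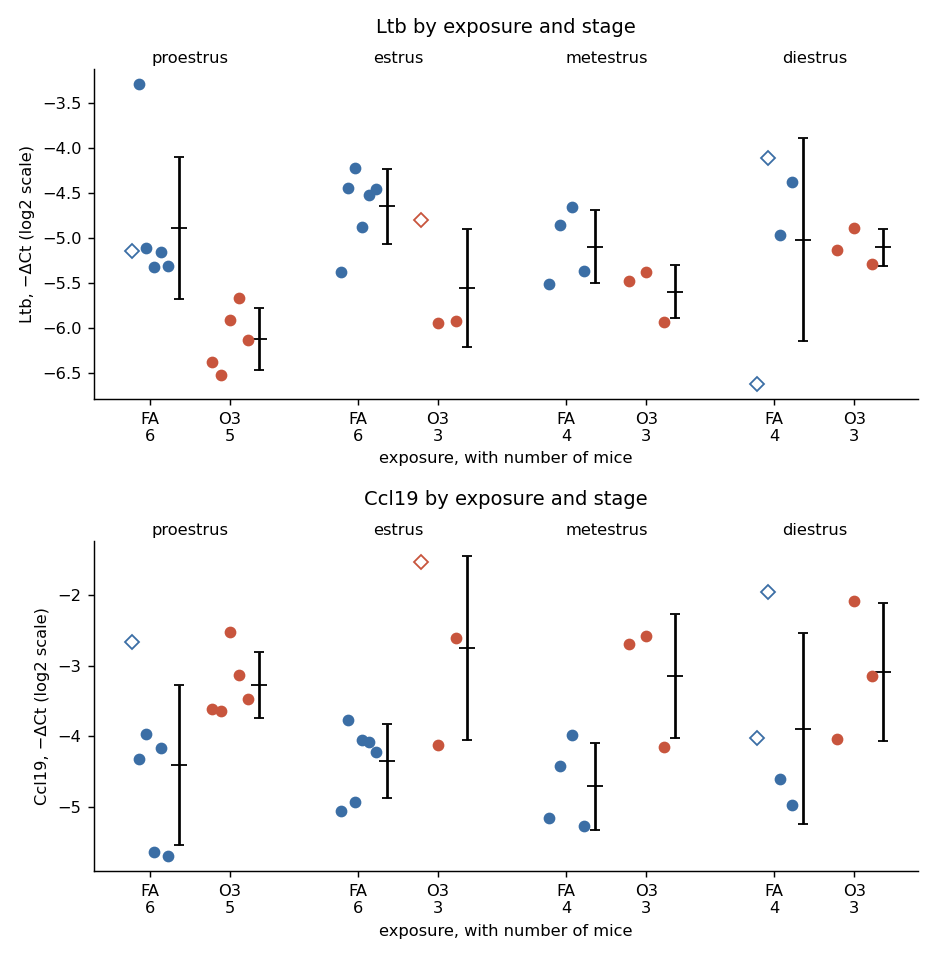
Expression (-ΔCt, log2 scale) of Ltb (top) and Ccl19 (bottom) in each mouse by stage and exposure (FA blue, O3 red), with mean ± SD in black. Open diamonds are the 4 mice numbered 31 to 34. In proestrus every O3 mouse lies below every FA mouse for Ltb, and for Ccl19 the O3 group mean is above the FA mean in each stage.

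Ccl19 was higher after O3 in follicular females, and its luteal difference did not pass the test with all mice. In follicular females the 8 O3 mice lay between -4.12 and -1.53 with a median of -3.29, and the 12 FA mice between -5.70 and -2.67 with a median of -4.19. The groups overlapped, and 7 of the 12 FA mice were below every O3 mouse. The O3 mice averaged -3.08 ± 0.83 (SD, n = 8) and the FA mice -4.38 ± 0.85 (SD, n = 12). The difference was 1.30 (SE 0.41), or 2.47-fold higher, with a 95% interval from 1.39-fold to 4.38-fold (limma, adjusted p = 0.0152), and 19% of wells were higher in this contrast. The call for Ccl19 did not hold with reference well H2 alone (adjusted p = 0.153), with H3 alone (adjusted p = 0.152), on the authors' linear fold changes (adjusted p = 0.0609) or with replicate number as a block (adjusted p = 0.0624). Without the 4 mice the difference was 1.24 (adjusted p = 0.00277, limma), and 20.2% of wells were higher.

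In luteal females the 6 O3 mice lay between -4.16 and -2.08 with a median of -2.92, and the 8 FA mice between -5.27 and -1.95 with a median of -4.52. Of the FA mice, 5 were below every O3 mouse, and FA diestrus replicate 2 was above all of them. The difference was 1.19 (95% interval 0.21 to 2.17), or 2.28-fold, and did not pass the test (adjusted p = 0.0699). Without FA diestrus replicate 2 alone it was 1.52 (adjusted p = 0.0107), and without the 4 mice it was 1.62 (adjusted p = 0.00201), where 22.6% of wells were higher. The interaction for Ccl19 was 0.12 (95% interval -1.16 to 1.40, adjusted p = 0.955) and -0.38 without the 4 mice. Averaged over both phases, Ccl19 was 1.25 higher after O3 (adjusted p = 0.00194, limma), in a contrast where 23.8% of wells were higher. With H2 alone that call was lost (1.42, adjusted p = 0.0529).

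The same 6 O3 luteal mice had nearly equal Ccl19 Ct values before scaling, from 24.16 to 24.52 cycles (SD 0.13). The mean Ct of their reference wells ranged from 20.01 to 22.43 cycles (SD 0.90). The spread of their -ΔCt (SD 0.83) was thus close to that of the reference wells. In the 8 FA luteal mice the Ccl19 Ct had an SD of 1.26 cycles and the reference mean one of 1.29.

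By stage, the Ccl19 estimates against the 4 reference wells were all above 0, and with all mice and exposure and stage alone in the fit none passed the test. In proestrus the O3 values were -3.61, -3.64, -2.52, -3.13 and -3.46 and the FA values ran from -5.70 to -2.67 with a median of -4.24. Only FA proestrus replicate 1, one of the 4 mice set apart, was within the O3 range, and the difference was 1.14 (adjusted p = 0.192), with 11.9% of wells higher. Without that mouse and the 3 others it was 1.49 (adjusted p = 0.0149, limma), and 20.2% of wells were higher.

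In estrus the O3 values were -1.53, -4.12 and -2.60 and the FA values ran from -5.06 to -3.76 with a median of -4.15. In metestrus the O3 values were -2.69, -2.58 and -4.16 against -5.16, -4.42, -3.98 and -5.27 in FA. In diestrus they were -4.03, -2.08 and -3.14 against -4.03, -1.95, -4.61 and -4.98 in FA. In each of these stages at least 1 O3 mouse lay within the FA range. The differences were 1.60 (adjusted p = 0.0920), 1.57 (adjusted p = 0.183) and 0.81 (adjusted p = 0.549, limma), and 14.3%, 7.14% and 5.95% of wells were higher in these stages. In estrus the difference was 2.29 without O3 estrus replicate 2 (adjusted p = 0.0246) and 0.99 without O3 estrus replicate 1 (adjusted p = 0.544). Without the 4 mice it was 0.99 in estrus (adjusted p = 0.323) and 1.71 in diestrus (adjusted p = 0.0805, limma). With the Ct format as a term the difference was called in proestrus (1.68, adjusted p = 0.00114) and in diestrus (1.62, adjusted p = 0.0312). Proestrus was also called with H1 alone (adjusted p = 0.0420) and H5 alone (0.0374), and estrus on the authors' linear fold changes (0.0399, limma).

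Neither gene passed a test for a difference between stages at a fixed exposure by limma, with 3 to 6 mice per stage. For Ltb the moderated F test over the 4 stages gave an adjusted p of 0.996 within FA and 0.522 within O3, and for Ccl19 0.996 and 0.911. No well (0%) passed within FA, where 3 had an unadjusted p under 0.05, and 2.38% passed within O3. Without mice 31 to 34 the same F test gave an adjusted p of 0.996 within FA and 0.323 within O3 for Ltb. For Ccl19 these were 0.996 and 0.968 (moderated F). Follicular against luteal FA mice differed by 0.29 for Ltb and by -0.08 for Ccl19 (adjusted p = 0.982 for both, limma). In O3 mice the same difference was -0.56 for Ltb (95% interval -1.25 to 0.13, adjusted p = 0.268) and 0.04 for Ccl19 (adjusted p = 0.960). For Ltb it was -0.72 without mice 31 to 34 (adjusted p = 0.087, limma). It was -0.90 with the mean Ct of the array wells as reference (adjusted p = 0.0712) and -0.18 with a format term (adjusted p = 0.820, limma). A difference between stages is thus not excluded.

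Ordered by mean -ΔCt, Ltb ran from O3 proestrus (-6.13) through O3 metestrus (-5.60), O3 estrus (-5.56) and O3 diestrus (-5.11) to FA metestrus (-5.10), FA diestrus (-5.02), FA proestrus (-4.89) and FA estrus (-4.65). Ccl19 ran from FA metestrus (-4.71) through FA proestrus (-4.41), FA estrus (-4.35) and FA diestrus (-3.89) to O3 proestrus (-3.27), O3 metestrus (-3.14), O3 diestrus (-3.09) and O3 estrus (-2.75). For both genes the 4 O3 means lay at one end of the order and the 4 FA means at the other, on opposite sides. In both orders every pair of neighbors had overlapping ranges.

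The 2 genes were next set against each other within each mouse, as Ct(Ccl19) minus Ct(Ltb), which is the log2 ratio of Ltb over Ccl19 apart from a constant. The reference wells cancel in it, so it does not depend on which were used. Its absolute level also depends on how well each primer pair amplifies, so only differences between groups are read. Such a difference is the Ltb difference minus the Ccl19 difference already given. It re-tests the same values, for genes chosen with earlier results known, and is not further evidence. It also rests on the less secure name of the Ccl19 well. In follicular females the ratio lay between -3.40 and -1.83 in the 8 O3 mice and between -2.48 and 1.04 in the 12 FA mice. Of the 8 O3 mice, 7 were below every FA mouse, and FA proestrus replicate 1 was the FA mouse within the O3 range. The O3 mice averaged -2.84 ± 0.52 (SD, n = 8) and the FA mice -0.39 ± 0.95 (SD, n = 12). The difference was -2.45 (SE 0.33), or 5.45-fold lower after O3 (exact permutation test, two-sided, p = 1.59e-05).

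In luteal females the ratio ran from -2.81 to -1.11 after O3 and from -2.60 to 0.60 after FA. Of the 8 FA mice, 6 were above every O3 mouse, and the 2 others were FA diestrus replicates 1 and 2. The difference was -1.48 (SE 0.47), or 2.79-fold lower after O3 (exact permutation test, two-sided, p = 0.0163). Most of it came from Ccl19, which differed by 1.19, while Ltb differed by -0.29. The interaction was -0.97 (permutation test with 100000 resamples, two-sided, p = 0.0921). It had p = 0.0322 without FA proestrus replicate 1, where it was -1.16, and p = 0.0461 without FA diestrus replicate 4, where it was also -1.16 (permutation tests). Without all of the 4 mice it was -0.56 (permutation p = 0.254).

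Of these 4 mice, the 3 FA mice had ratios of -2.60, -2.48 and -2.16. They were the only FA mice within the O3 range of their phase, and with all mice the exposures overlapped. Without these 4 mice the exposures did not overlap in either phase. That lack of overlap, and the smallest possible p that comes with it, depend on leaving out these FA mice. Differences between reference wells are no reason for it here, since those wells cancel in the ratio. The follicular O3 mice then ranged from -3.40 to -1.83 and the FA mice from -1.15 to 1.04, a difference of -2.58 (exact permutation test, p = 3.14e-05, the smallest possible with 7 and 11 mice). The luteal O3 mice ranged from -2.81 to -1.11 and the FA mice from -0.68 to 0.60. That difference was -2.02, or 4.05-fold (exact permutation test, p = 0.00216, the smallest possible with 6 and 6 mice). For scale, in the same mice -ΔCt did not overlap in this direction for 2.38% of wells in each phase, and in the other direction for 10.7% (follicular) and 8.33% (luteal).

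By stage the ratio was lower after O3 by 2.37 in proestrus, 2.51 in estrus, 2.07 in metestrus and 0.89 in diestrus on the log2 scale. The exact permutation tests, adjusted over the 4 stages, gave p = 0.0173, 0.0238, 0.0381 and 0.4. The metestrus call was lost without any 1 of its 7 mice (-2.40 to -1.89), where fewer mice raise the smallest possible p to 0.0667 or 0.1 (exact permutation). In limma beside the 84 wells metestrus had an adjusted p of 0.0610, or 0.134 with the replicate block. The diestrus difference ran from -1.38 to -0.32 when 1 mouse was left out. Adding a term for Ct format gave -1.84 (adjusted p = 0.0262, limma). In estrus and metestrus no O3 mouse overlapped an FA mouse, and the unadjusted p of 0.0119 and 0.0286 were the smallest that these group sizes allow. In those stages -ΔCt did not overlap, with O3 lower, for 1.19% and 11.9% of wells, and with O3 higher for 16.7% and 17.9%. In proestrus all 5 O3 mice, from -3.40 to -2.54, were also below the lowest FA mouse at -2.48. In diestrus the FA values were -2.60, -2.16, -0.35 and 0.60 and the O3 values -1.11, -2.81 and -2.15. The 2 low FA values were those of the mice set apart, and without them the FA mean was 0.13 and the difference -2.15, with 2 FA mice against 3 (exact permutation p = 0.2, where 0.1 is the smallest possible).

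Over the formats of the Ct values the ratio differed between exposures in the same direction. Among mice with 6 decimals it was between -0.35 and 0.39 in 4 FA mice and between -2.88 and -1.83 in 4 O3 mice. Among mice with 3 decimals it was between -1.15 and 1.04 in 13 FA mice and between -3.40 and -1.11 in 9 O3 mice. In the mice with more decimals, the 3 FA values were between -2.60 and -2.16 and the 1 O3 value was -3.28. Within FA both the ratio and the single genes moved with the format. The mean FA ratio was 0.0064 with 6 decimals, -0.27 with 3 and -2.41 with more. The 3 FA mice with more decimals thus lay within the O3 range of the other formats. Mean Ccl19 -ΔCt was -5.39 in the 4 FA mice with 6 decimals, -4.37 in the 13 with 3 and -2.88 in the 3 with more.

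**Figure D2:**
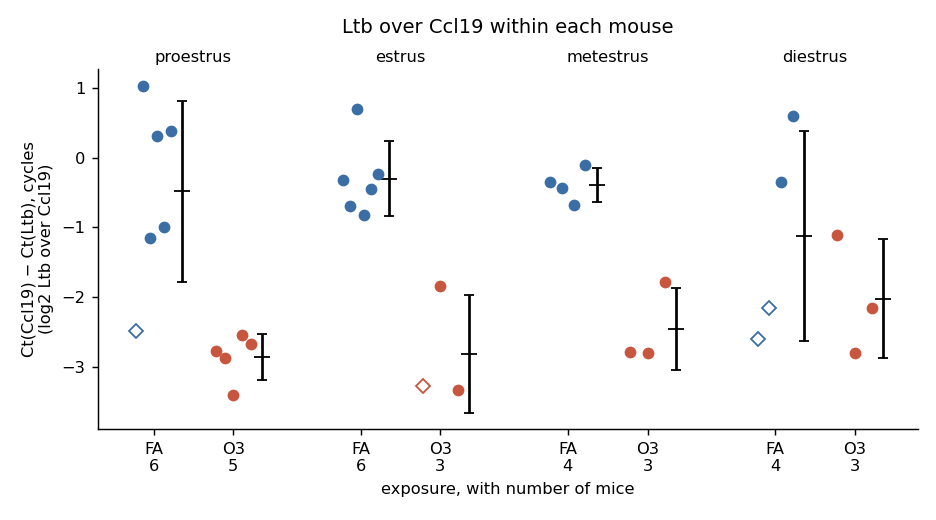
Ct of Ccl19 minus Ct of Ltb in the same mouse (cycles, the log2 ratio of Ltb over Ccl19 apart from a constant) by stage and exposure, with mean ± SD in black. Open diamonds are the mice numbered 31 to 34. The 3 FA mice among them lie between -2.60 and -2.16, while the other 17 FA mice lie between -1.15 and 1.04.

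Across mice of one exposure the 2 genes were not clearly related. Both values contain the reference Ct of the mouse, which by itself gives them shared spread. Within FA, Pearson's r was 0.26 (permutation p = 0.272) and Spearman's rho 0.37 (permutation p = 0.114) over 20 mice. Within O3 they were 0.58 (permutation p = 0.0304) and 0.59 (permutation p = 0.0283) over 14 mice. Adjusted for the 2 relations, the O3 values were p = 0.0608 for r and p = 0.0565 for rho (permutation tests). Without the 2 mice farthest from the median of Ltb, r within O3 was 0.22, and within FA it was 0.49, so with all mice the O3 relation rested on them. With the mean Ct of the array wells as the reference, r was 0.06 within FA and 0.46 within O3. Without mice 31 to 34, r was 0.45 within FA and 0.43 within O3 (permutation p = 0.0702 and 0.144), and 0.63 and 0.50 with the 2 farthest of those mice left out as well. With the array mean as the reference these mice gave 0.49 within FA (permutation p = 0.0429, adjusted over 2 relations 0.0834) and 0.50 within O3 (permutation p = 0.0834).

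**Figure D3:**
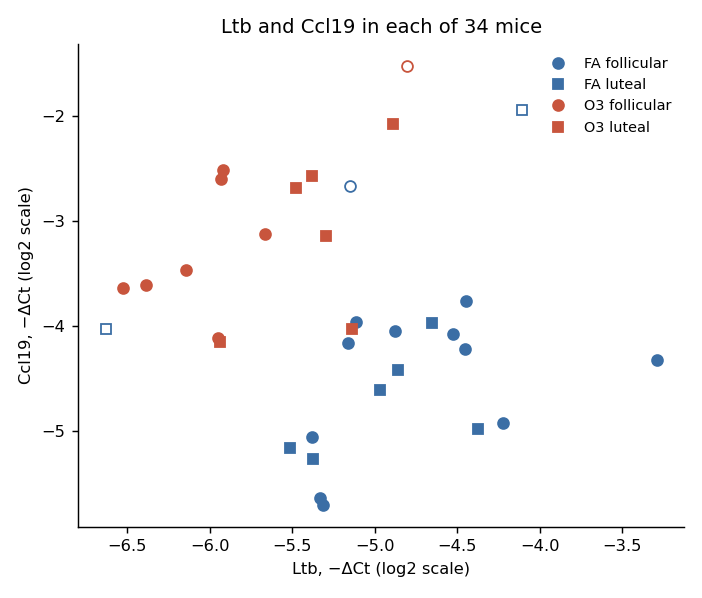
Ltb against Ccl19 (both -ΔCt, log2 scale), 1 point per mouse, with circles for follicular and squares for luteal females, FA in blue and O3 in red. Open symbols are the mice numbered 31 to 34. Most O3 mice lie to the upper left of the FA mice, while r within FA is 0.26 and within O3 is 0.58.

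Each gene was also compared with the 57 other array wells that had a Ct in every mouse. The well most like Ltb over the 34 mice was D9 (Pearson r = 0.75), followed by B5 (0.55) and B12 (0.52), none of which has a name here. The wells most like Ccl19 were Il1r1 (r = 0.84), the interleukin 1 receptor, Fos (0.73), an immediate early transcription factor, and the unnamed well E10 (0.72). Ltb and Ccl19 had r = -0.08 with each other. These correlations pool both exposures and share the reference Ct, with a median r of 0.00 for Ltb and 0.29 for Ccl19 over the wells. With the array mean as the reference, D9 (0.81) and Il1r1 (0.69) remained the most alike.

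Among chemokine ligands, the follicular estimate for Ccl19 (1.30) was below that of all but Ccl17. Of the 10 other ligands that could be named, 9 rose after O3 in follicular females and 1 did not pass the test, where 19% of all wells rose and 3.57% fell. They had a median difference of 2.78 against 0.29 over all 84 wells. Ccl20, which attracts cells through Ccr6, rose by 7.78 (adjusted p = 1.03e-06) and Ccl17, a ligand of Ccr4, by 1.21 (adjusted p = 0.00153, limma), the highest and lowest estimates of the list. In luteal females 4 of the 10 rose and 6 did not pass, where 11.9% of all wells rose and 9.52% fell, with a median of 1.74 against -0.12 over all wells. Ccl20 was 6.95 higher and Ccl17 1.60 higher there (adjusted p = 0.000164 and 0.000821, limma). Ccl20 had no Ct in 3 of the 20 FA mice, which were set to a Ct of 40, and with those left out it was 7.08 higher in follicular and 5.20 higher in luteal females. Cxcl1, Cxcl3 and Cxcl5 also lacked a Ct in some mice. With missing values left out, Cxcl3 passed in follicular females (1.72, adjusted p = 0.0231, limma). Cxcl1 then passed in luteal females (2.43, adjusted p = 0.0235, limma), and the other calls of the list were unchanged. The list holds genes the study reported for these mice, so its direction is not independent evidence.

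Among 6 named genes on or downstream of the NF-κB route, 4 rose and 1 fell in follicular females and 1 did not pass, where 19% of all wells rose and 3.57% fell. The median difference was 1.38 against 0.29 over all wells. Il6, a cytokine gene, had the highest estimate (7.44 higher, adjusted p = 1.49e-07) and Nos2 the lowest (1.66 lower, adjusted p = 0.0392, limma). In luteal females 4 rose, 1 fell and 1 did not pass, where 11.9% of all wells rose and 9.52% fell, with a median of 1.19 against -0.12. Il6 was 6.81 higher (adjusted p = 2.79e-05) and Nos2 2.11 lower (adjusted p = 0.0296, limma). Il6 had no Ct in 12 of the 20 FA mice, and with those left out it was 5.07 higher in follicular and 4.01 higher in luteal females. Nos2 had no Ct in 1 of the 14 O3 mice, without which it was 0.91 lower in luteal females (adjusted p = 0.0479, limma). These genes too were named from the reported results of the same mice.

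Of the 2 monocyte and macrophage markers, Ccr2 was 1.14 lower after O3 in follicular females and 2.30 lower in luteal females (adjusted p = 0.0152 and 0.000164, limma). Cd14, the endotoxin co-receptor, was 1.89 higher in follicular females (adjusted p = 6.44e-05) and 0.69 higher in luteal females (adjusted p = 0.225, limma). Fos rose by 1.14 in follicular females (adjusted p = 0.00564) and was 0.95 higher in luteal females (adjusted p = 0.0588, limma). Both markers had a Ct in every mouse. The mean -ΔCt of the 2 markers ranged from -6.66 to -4.68 in O3 follicular, -6.82 to -4.28 in FA follicular, -8.21 to -5.90 in O3 luteal and -6.83 to -4.34 in FA luteal mice. The estimates of the 2 markers had opposite signs, so their mean blends opposing shifts and does not measure the number of these cells. The part of monocytes and macrophages in the Ltb and Ccl19 results was not tested.

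**Figure D4:**
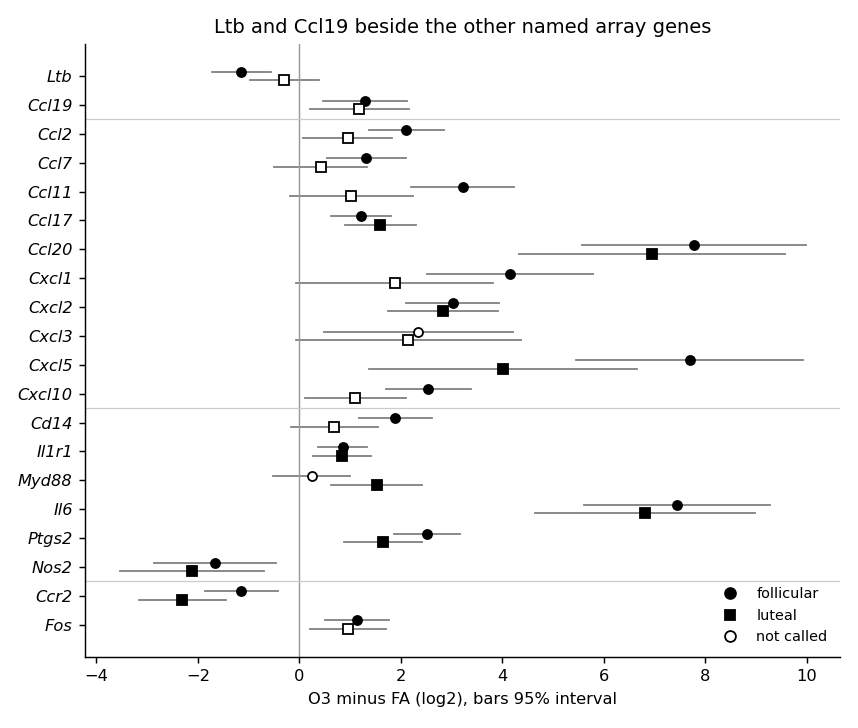
Difference between O3 and FA (log2) with its 95% interval for the 20 genes that could be named, in follicular (circles) and luteal (squares) females, with filled symbols for adjusted p under 0.05 (limma). Lines separate Ltb and Ccl19, 10 chemokine ligands, 6 NF-κB route genes, and Ccr2 and Fos. In follicular females Ltb, Nos2 and Ccr2 are the filled circles below 0.

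**Figure D5:**
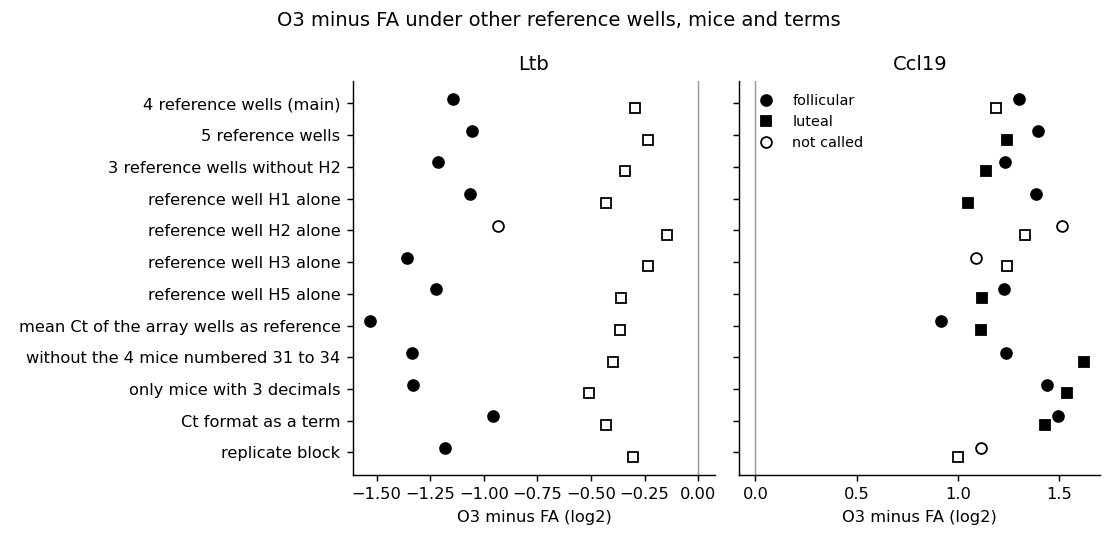
Difference between O3 and FA (log2) for Ltb (left) and Ccl19 (right) in follicular (circles) and luteal (squares) females with other reference wells, mice or terms, with filled symbols for adjusted p under 0.05 (limma). Every Ltb estimate shown is below 0 and every Ccl19 estimate above 0. With reference well H2 alone, Ltb is -0.93 in follicular females and is not called.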

How the data were processed

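RNA from whole lung of 34 mice was measured on a PCR array (400 ng reverse transcribed per mouse). The authors deposited Ct values in cycles, not normalized, and fold changes as a ratio on a linear scale, computed by the authors against 4 endogenous controls and 1 calibrator mouse. Threshold settings are not given in the sources used here. The precision is limited by the number of mice, since the molecules behind a Ct are unknown.

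From the Ct values, -ΔCt was computed against wells H1, H2, H3 and H5, and wells without amplification were set to a Ct of 40 (237 values, none of Ltb or Ccl19). limma 3.58.1 (R 4.3.3) was fitted to all 84 wells, with 4 group means of exposure and phase or 8 of exposure and stage. Variances were moderated by empirical Bayes, and two-sided p-values were adjusted by the method of Benjamini and Hochberg across all 84 wells (FDR under 0.05). The Ltb over Ccl19 ratio was tested by exact permutation, and its interaction by permuting phase within each exposure (100000 resamples). The tests were checked on simulated data. Tests and plots were made in Python 3.11.15 (scipy 1.17.1, matplotlib 3.10.9, numpy 2.4.6, pandas 2.3.3). Mice were grouped by the labels.

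Named genes were Ltb and Ccl19, the 3 wells most like each, the highest and lowest member of each list in follicular females, Ccr2, Cd14 and Fos. Cd14 is also on the NF-κB list. Genes and lists were chosen with earlier results of these data known. Alternatives were other reference wells, a filter on low wells, missing Ct values left out, Ct values cut at 35, the authors' fold changes, subsets of mice, Ct format as a term, a replicate block, limma's trend and robust options, stages weighted equally, separate fits, permutation per well, medians, and each mouse left out. Replicate numbers were not taken to pair the mice in the main tests. The 64 unnamed wells are reported by position.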

Additional observations from a re-analysis of the deposited data

Results flagged for a closer look

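Groups of 4 to 10 mice were examined for a mouse far from the rest by Dixon's criterion at the 95% level, for Ltb, Ccl19 and their ratio. Of 24 groups and measures tested, 2 were flagged, and chance flags about 1 in 20.

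Ltb in FA proestrus replicate 2 had a -ΔCt of -3.29, with a gap to the nearest mouse of 0.895 of the range of its group. It is the highest Ltb value of the 34 mice, and its Ccl19 value of -4.33 lay near the group median. Ccl19 in FA diestrus replicate 2 had a -ΔCt of -1.95, with a gap of 0.611 of the range of the FA luteal group. In that mouse reference wells H1 and H2 lay 3.62 cycles apart and wells H10 to H12 had a mean Ct of 27.5, against a median of 20.5 over all mice. The part of these wells in its Ccl19 value was not tested.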

How the results depend on the processing

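Ltb in follicular females was lower under every alternative run, and the call was lost only with reference well H2 alone (-0.93). Ccl19 in follicular females was higher under every alternative, and lost the call with H2 alone (1.51), H3 alone (1.09), the authors' linear fold changes (1.35, a difference of fold changes) and the replicate block (1.12). Ccl19 in luteal females was called with 5 reference wells (1.24), H1 alone (1.05), H5 alone (1.12), 3 reference wells without H2 (1.14, chosen after seeing the data), the array mean as reference (1.12), without mice 31 to 34 (1.62), with only mice of 3 decimals (1.54) and with Ct format as a term (1.43). The Ccl19 interaction changed sign with H3 alone (-0.15), the array mean (-0.20), without mice 31 to 34 (-0.38) and with only mice of 3 decimals (-0.10), and passed the test in none. The cause of these changes was not tested.

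Some of the smaller contrasts changed sign in the fits listed next, and none of those fits called the contrast. Ltb in estrus was 0.0703 with H2 alone, and Ltb in diestrus was 0.13 with H3 alone and 0.053 with the array mean. Ccl19 in FA follicular against FA luteal mice was 0.0032 with H3 alone, 0.20 without mice 31 to 34, 0.47 with 3 decimals, 0.29 with the format term and 0.0397 with the block. Ccl19 in O3 follicular against O3 luteal mice was -0.0786 with H2 alone, -0.15 with H3 alone, -0.30 with the array mean and -0.18 without mice 31 to 34. The ratio kept its side of the threshold in each phase and for the interaction under every such alternative run, by unadjusted p.

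Leaving out each mouse in turn gave -1.30 to -1.01 for Ltb in follicular and -0.52 to -0.16 in luteal females, and -1.01 to -0.63 for its interaction. Ccl19 ran from 1.08 to 1.46 in follicular and from 0.98 to 1.52 in luteal females, where it was called without FA diestrus replicate 2 or O3 metestrus replicate 3, and its interaction from -0.22 to 0.32. The Ltb diestrus estimate ran from -0.62 to 0.22. Ccl19 FA follicular against FA luteal ran from -0.24 to 0.26, and O3 follicular against O3 luteal from -0.18 to 0.24. The ratio ran from -2.64 to -2.32 in follicular and from -1.74 to -1.29 in luteal females, and its interaction from -1.16 to -0.70.

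Same-numbered mice of different groups deviated from their group means with a median correlation of 0.06 over 98 pairs, from -0.60 to 0.60. With the replicate block the ratio was -2.30 in follicular and -1.30 in luteal females, with an interaction of -0.99, and the luteal value had an adjusted p of 0.0565 beside the 84 wells (limma). The number of mice, 3 to 6 per stage, limits what could be detected in a single stage.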
